A study of Mus musculus with 9 samples.

Results

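The integrated stress response and the mitochondrial unfolded protein response were examined here through 40 genes, chosen by name: 24 regulators and targets of the integrated stress response, and 16 mitochondrial chaperones, proteases and their partners. Of the 40 genes, 38 were measured, out of 19505 gene symbols on the array. Pycr1 and Gdf15 were not analysed here. A gene with several probe sets was read from the one with the highest mean over all arrays, which among the members concerned Ddit3 alone. No member passed an adjusted p of 0.05 in any comparison of the genotypes.

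Calcium enters the mitochondrial matrix through the uniporter, with MCU as its pore and MCUb as a paralogue of MCU in the same complex. The series asks, per its title, what MCUb does for oxidative phosphorylation. Total RNA of whole tibialis anterior, a fast muscle of the lower leg, was hybridised to Affymetrix Clariom S mouse arrays, 3 per genotype. The genotypes were MCU knockout (MCU-/-/MCUb+/+), MCUb knockout (MCU+/+/MCUb-/-) and control (MCU+/+/MCUb+/+), all of C57/BL6 mice aged 2 months. Whether a deletion was confined to muscle, and which promoter or Cre drove it, is not given in the sources used here, nor is the sex of the mice. Nothing in the labels states that a genotype's 3 samples are 3 animals, and the p-values therefore rest on a spread between samples that may in part be technical.

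Cells answer several kinds of stress, among them amino acid shortage, misfolded protein in the endoplasmic reticulum and failing mitochondria, by phosphorylating the translation factor eIF2. General translation then drops while the messenger RNA of the transcription factor ATF4 is translated more, and ATF4 switches on genes of amino acid synthesis, one-carbon metabolism, amino acid transport and, when stress lasts, cell death. The mitochondrial unfolded protein response is the companion programme that raises chaperones and proteases inside mitochondria. In muscle with a defective respiratory chain, the hormones FGF21 and GDF15, the serine synthesis enzymes and MTHFD2 are well known readouts of both. Since ATF4 is controlled largely through translation, the level of its messenger RNA says little about the protein, and its targets carry more of the information.

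ATF4 binds, with a C/EBP partner, to composite elements whose core was searched for here as TGATGNAA on both strands within the 250 bases before each start site in RefSeq (GRCm38.p6). The core was found for 7 of 36 members with a promoter in that table (19.4%), against 3.91% of 27025 genes and 3.45% of 32851 promoters. Because the members were chosen by name and include known targets of ATF4, the higher share is no independent evidence. The stretches are shown because they mark which measured members carry an ATF4-type element next to the start site; capitals mark the core, read 5′ to 3′ along the strand of the gene.
Asns, chr6:7693210-7693258, minus strand: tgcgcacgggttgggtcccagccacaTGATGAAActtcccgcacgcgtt
Vldlr, chr19:27216794-27216853, plus strand: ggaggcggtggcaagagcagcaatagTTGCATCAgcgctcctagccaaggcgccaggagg
Fgf21, chr7:45615596-45615655, minus strand: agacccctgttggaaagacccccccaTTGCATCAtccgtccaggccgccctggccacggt
Chac1, chr2:119351023-119351082, plus strand: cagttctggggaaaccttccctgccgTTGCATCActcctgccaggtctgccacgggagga
Nupr1, chr7:126625547-126625606, minus strand: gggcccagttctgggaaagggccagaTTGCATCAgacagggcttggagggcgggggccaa
Slc7a11, chr3:50443637-50443695, minus strand: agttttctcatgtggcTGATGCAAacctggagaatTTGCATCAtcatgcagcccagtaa
Of these genes, 4 carry TTGCATCA, the same letters as TGATGCAA on the other strand, and Slc7a11 carries a core on each strand. The seventh gene, Pycr1, was not measured. The core ended 15 bases before the start site in Asns, 102 in Nupr1, 131 in Fgf21, 185 in Chac1 and 192 in Vldlr. A match describes the letters of the window and is not evidence of a bound site.

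Mitochondrial chaperone genes are known for heat shock elements, searched for here as GAANNTTC on both strands of the same windows. It was found for 3 of 36 members (8.33%), Asns, Hspd1 and Hspe1, against 7.73% of genes and 6.69% of promoters. In Asns it overlaps the element above. Hspd1 and Hspe1, which encode HSP60 and its lid HSP10, are neighbours that start in opposite directions, and the match is 1 site on chromosome 1 that both windows contain. It is printed, with capitals for the core, because both genes of the chaperonin share it.
Hspe1, chr1:55088038-55088097, plus strand: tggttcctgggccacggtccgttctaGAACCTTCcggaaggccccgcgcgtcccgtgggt
The site ended 76 bases before the start of Hspe1 and 131 before that of Hspd1.

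Levels are the deposited log2 values of a probe set, and levels of different genes cannot be compared. The background limit of an array, the 95th percentile of its 23 background sets, lay between 5.87 and 5.92, and a probe set over this limit counted as above background. Between 45.3% and 45.9% of 22206 probe sets were above it. Mcu read 6.80 to 7.06 in MCU knockout muscle and 10.71 to 11.06 in MCUb knockout muscle, against 10.38 to 10.96 in control muscle, a log2 change of -3.65 (SE 0.20, limma adjusted p = 3.47e-05) between MCU knockout and control. Mcub was not analysed here, so its loss in MCUb knockout muscle was not checked on these arrays. Muscle fibre markers (9 of 9 on every array) averaged 18.35 to 18.47, 18.35 to 18.45 and 18.05 to 18.45 in MCU knockout, MCUb knockout and control. Control replicate 3 stood apart from the other arrays, with the lowest mean correlation (0.978 against up to 0.988) and -70.8 on the first principal component, where the others lay between -20.3 and 21.9. Of 4 adipocyte markers measured, Adipoq (6.75) and Retn (6.60) were above background on this array alone. The Y-linked genes Uty and Kdm5d had a high mean level on MCU knockout replicates 2 and 3 (7.56 and 7.24) and MCUb knockout replicate 1 (7.80), and 3.01 to 3.89 on the other arrays. Within each knockout this level differed, so its 3 samples did not all come from the same animal. For control, where the level was low on every array, this is unknown. Values without control replicate 3, and after adjustment for the Y-linked level, are given below for members on which they bear. In whole muscle, fewer cells of a type and less RNA per cell cannot be told apart.

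Which members muscle expressed was the first question. Above background on all 9 arrays were 26 members, on none 11, and Asns on 8. All 16 mitochondrial members were among the 26. Of the 22 measured members of the stress response, 10 were detected on every array, and the 11 on no array included classical targets of ATF4: Trib3, Sesn2, Psat1, Phgdh, Mthfd2, Fgf21, Slc7a11 and Slc7a5. In addition the transcription factor gene Cebpb, the phosphatase subunit gene Ppp1r15a and the one-carbon enzyme gene Mthfd1l were above background on no array. For these 11 no fold change is given, because both groups of each comparison have only a bound. The plot of levels by array shows both sets of members.

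**Figure D1:**
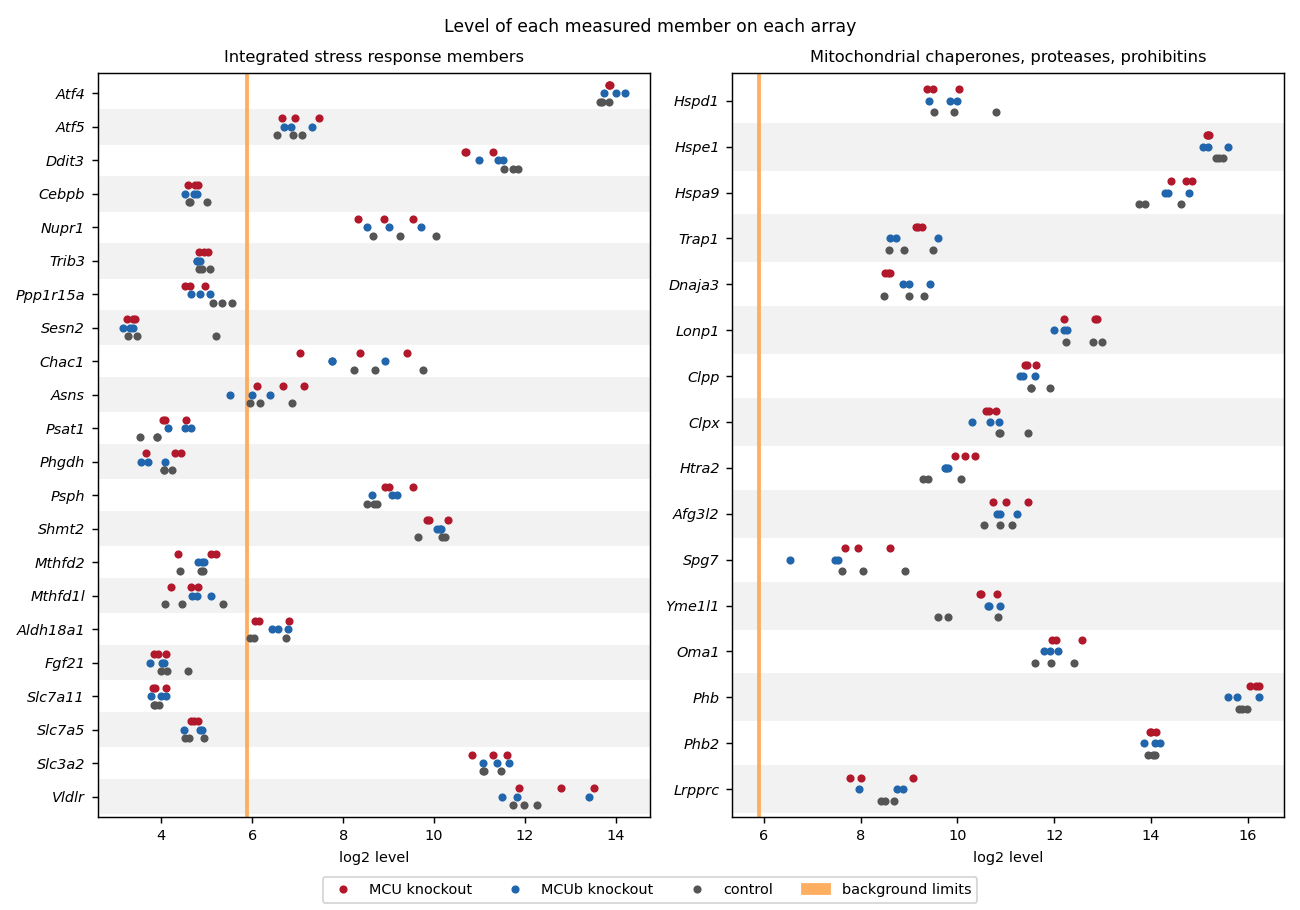
Log2 level of each measured member on each array, with 1 point per array (MCU knockout red, MCUb knockout blue, control grey, 3 each) and the range of the background limits as an orange band. The 11 undetected stress response members lie wholly left of the band, every mitochondrial member lies right of it, and for most members the points of the 3 genotypes intermingle.

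The central question was whether either knockout engaged the programme. In MCU knockout against control muscle, 0 of 38 members passed the adjusted threshold, where 31 probe sets (0.14%) did, and the smallest adjusted p was 0.308 (Ddit3). At an unadjusted p under 0.05, 3 members were higher and 2 lower, where 4.76% and 5.35% of all probe sets would amount to 1.81 and 2.03 of 38 members. The 3 arrays of each genotype did not overlap for 7 members, against 5.10 at the background share of 13.4%. Ppp1r15a is in both counts and Psat1 in the second, though both genes were above background on no array. The median log2 change was 0.02 for the stress response members, -0.02 for the mitochondrial members and -0.02 for all probe sets. Of the 22 stress response members behind the first median, here and in the other comparisons, 11 were above background on no array.

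In MCUb knockout against control muscle 0 of 38 members passed, where 5 probe sets (0.0225%) did, and the smallest adjusted p was 0.534 (Psat1). Members at an unadjusted p under 0.05 numbered 2 higher and 2 lower, with 1.48 and 1.60 at the background shares of 3.9% and 4.21%. Groups did not overlap for 4 members, with 4.85 at the background share of 12.8%. Both counts include Psat1 and Ppp1r15a, which were above background on no array. Median log2 changes were 0.07 for the stress response members, -0.02 for the mitochondrial members and -0.03 for all probe sets. These counts lie near the background.

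Between the knockouts, the direct test of a difference between them, 0 of 38 members passed, where 35 probe sets (0.158%) did, and the smallest adjusted p was 0.832 (Spg7). One member was higher and 1 lower at an unadjusted p under 0.05, with 1.02 and 1.15 at the background shares of 2.68% and 3.02%. Groups did not overlap for 3 members, with 4.86 at the background share of 12.8%. The 2 comparisons with control share the control arrays.

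How large a change the data allow is shown by the intervals. The median SE of a member was 0.24. At that error the adjusted threshold corresponds to a log2 change of 1.46 for MCU knockout against control, 1.79 for MCUb knockout against control and 1.43 between the knockouts. The 95% interval of the log2 change lay wholly between -1 and 1 for 27, 28 and 31 of 38 members. Its upper end was below 1, a 2-fold increase, for 33 members in MCU knockout and 35 in MCUb knockout against control. These counts include the 11 members above background on no array, for which an interval sets no limit on a change. For the 16 mitochondrial members, all detected, the interval lay between -1 and 1 for 12, 12 and 13. Its upper end was below 1 for 13 of them in MCU knockout and 15 in MCUb knockout against control. With 3 arrays per genotype, a 2-fold change at the median SE would not pass the adjusted threshold in any comparison. The size needed differs between members, whose SE ran from 0.16 to 0.56. The plot of changes with their intervals gives all members, and the cumulative plot sets them beside all probe sets.

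**Figure D2:**
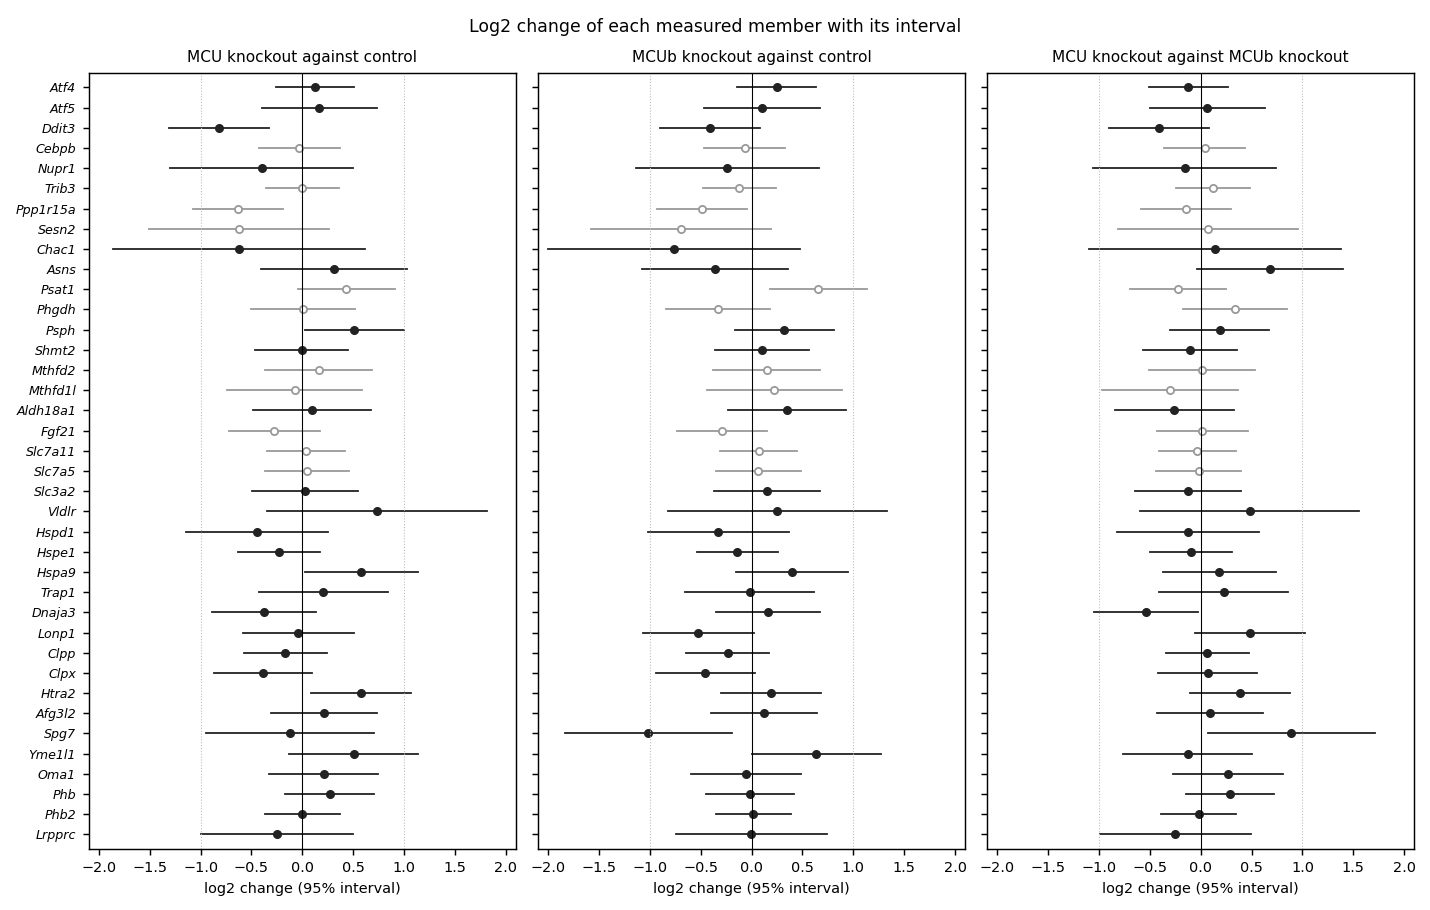
Log2 change of each measured member (points) with its 95% interval (bars) in the 3 comparisons. Filled points are members above background on at least 8 arrays, open grey points those above it on none, and dotted lines mark log2 changes of -1 and 1. Most intervals span 0 and lie between the dotted lines.

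**Figure D3:**
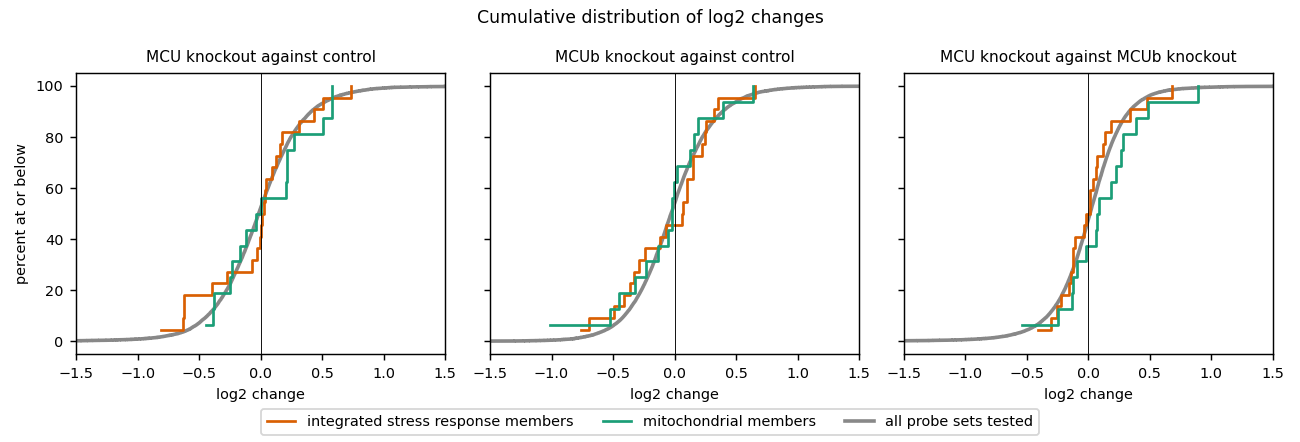
Cumulative percentage of log2 changes in each comparison for the 22 stress response members (orange), the 16 mitochondrial members (green) and all 22206 probe sets tested (grey). Of the stress response members, 11 were above background on no array. The member curves run near the grey curve over most of their range, and the medians of the members lie between -0.02 and 0.08.

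The regulators were led by Ddit3, which encodes CHOP, the transcription factor that ATF4 induces under prolonged stress. Ddit3 read 11.29, 10.69 and 10.71 in MCU knockout muscle, 10.98, 11.40 and 11.52 in MCUb knockout muscle, and 11.84, 11.54 and 11.74 in control muscle. Every array of either knockout lay below every control array, while the knockouts overlapped. Against control the log2 change was -0.82 in MCU knockout (SE 0.22, 95% interval -1.31 to -0.32, adjusted p = 0.308, exact permutation p = 0.1, the smallest that 3 against 3 arrays allow). It was -0.41 in MCUb knockout (adjusted p = 0.645).

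The Ddit3 probe set read above belongs, by its identifier, to the unmapped sets of the platform. Ddit3 has a second probe set, with an identifier of chromosome 10. It read 10.36, 10.25 and 10.25 in MCU knockout muscle, 11.02, 10.79 and 11.37 in MCUb knockout muscle, and 11.42, 11.07 and 10.80 in control muscle. Here the MCU knockout arrays lay below all arrays of both other genotypes, with a log2 change of -0.81 against control (adjusted p = 0.294) and -0.77 against MCUb knockout (adjusted p = 0.467). On MCUb knockout the probe sets disagreed, since the second gave a log2 change of -0.04 against control (adjusted p = 0.976).

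On the first Ddit3 probe set, the 3 arrays with a high Y-linked level were also the 3 lowest. With that level as a covariate its log2 change in MCU knockout against control was -0.50 (adjusted p = 0.644). The second probe set gave -0.77 with the covariate, and the array with the high Y-linked level in MCUb knockout muscle was not its lowest there. Without control replicate 3 the log2 changes were -0.80 and -0.96 on the first and second probe sets. Neither probe set passed in any setting tried, and over these settings the adjusted p ran from 0.140 to 0.644 on the first and from 0.157 to 0.583 on the second.

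Atf4 itself read 13.85, 13.85 and 13.87 in MCU knockout muscle, 14.19, 13.75 and 14.00 in MCUb knockout muscle, and 13.69, 13.85 and 13.66 in control muscle. All groups overlapped. Log2 changes against control were 0.12 (95% interval -0.26 to 0.51) in MCU knockout and 0.25 (-0.14 to 0.63) in MCUb knockout. A 2-fold change of the messenger RNA lies outside both intervals. Atf5, a related factor linked to the mitochondrial response, lay between 6.55 and 7.47 on all arrays, with log2 changes of 0.17 and 0.10.

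Ppp1r15a, whose product GADD34 dephosphorylates eIF2 and so ends the response, was above background on no array. It read 4.53, 4.63 and 4.96 in MCU knockout muscle, 5.06, 4.84 and 4.65 in MCUb knockout muscle, and 5.55, 5.14 and 5.33 in control muscle. Its knockout arrays lay below its control arrays (adjusted p = 0.362 in MCU knockout and 0.577 in MCUb knockout), all under the background limit. Chac1, a glutathione-degrading enzyme and sensitive target of ATF4, had the largest SE of the members. It spanned 7.06 to 9.76 over the 9 arrays, with log2 changes of -0.62 (SE 0.56) in MCU knockout and -0.76 in MCUb knockout against control. Nupr1, a small stress-induced chromatin protein, lay between 8.33 and 10.04, with log2 changes of -0.40 and -0.24. Chac1 and Nupr1 each had their highest value on control replicate 3. Without it the log2 changes of Chac1 were -0.20 and -0.33, and those of Nupr1 were -0.04 and 0.12. Single arrays of the knockouts moved Chac1 as much, to -0.01 in MCU knockout without its replicate 2, -1.19 without its replicate 3 and -1.15 in MCUb knockout without its replicate 3. Among the 9 regulators, of which 4 were below background throughout, 6 had a lower mean in MCU knockout and 7 in MCUb knockout than in control. At the shares of all probe sets with a lower mean, 52.4% and 54.0%, these counts would be 4.72 and 4.86.

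Enzymes of amino acid synthesis and one-carbon metabolism are the arm in which mitochondrial disease of muscle is most visible. Asns, asparagine synthetase, carries the element printed above. It read 6.11, 7.15 and 6.68 in MCU knockout muscle, 6.0015, 5.52 and 6.39 in MCUb knockout muscle, and 6.87, 6.17 and 5.96 in control muscle. The groups overlapped. MCUb knockout replicate 2 (5.52) was below background, and MCUb knockout replicate 1 and control replicate 3 lay close to the limit. Changes that involve MCUb knockout thus rest in part on an undetected value. The log2 change between MCU knockout and MCUb knockout was 0.68 (SE 0.33, adjusted p = 0.903), and those against control were 0.31 and -0.36. The value for MCU knockout was 0.06 without its replicate 2 and 0.05 after adjustment for the Y-linked level. The value for MCUb knockout lay between -0.57 and -0.09 when an array was left out, the extremes being without MCUb knockout replicate 3 and control replicate 1.

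Psph makes serine in the last step of its synthesis. Its level was 9.01, 9.55 and 8.91 in MCU knockout muscle, 9.18, 9.08 and 8.65 in MCUb knockout muscle, and 8.52, 8.74 and 8.68 in control muscle. Its MCU knockout arrays were all above its control arrays, at 1.42-fold (log2 change 0.51, SE 0.22, adjusted p = 0.474). MCUb knockout overlapped control (log2 change 0.32).

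Psat1, the enzyme of the preceding step, was above background on no array. Its values were 4.54, 4.03 and 4.08 in MCU knockout muscle, 4.15, 4.53 and 4.65 in MCUb knockout muscle, and 3.90, 3.91 and 3.54 in control muscle. All knockout arrays lay above all control arrays (adjusted p = 0.529 in MCU knockout and 0.534 in MCUb knockout), below the background limit throughout. The first enzyme of the pathway, Phgdh, lay between 3.56 and 4.43 with overlapping groups. Shmt2, the mitochondrial enzyme that passes a carbon from serine to folate, was well detected at 9.64 to 10.30, with log2 changes of -0.01 and 0.10. Mthfd2, which follows it, stayed at 4.38 to 5.19, below background on all arrays. Aldh18a1, of proline synthesis, had log2 changes of 0.09 and 0.35. In each knockout 6 of the 8 measured enzymes had a higher mean than in control and 2 a lower mean, 4 of the 8 being below background. At the shares of all probe sets with a lower mean, 52.4% in MCU knockout and 54.0% in MCUb knockout, 4.19 and 4.32 of the 8 would be lower.

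Fgf21, the hormone of the programme, lay below the background limit on every array. It read 4.11, 3.93 and 3.83 in MCU knockout muscle, 4.05, 3.75 and 4.01 in MCUb knockout muscle, and 4.58, 4.12 and 3.99 in control muscle, and the groups overlapped.

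The transporter and receptor genes overlapped between genotypes. Slc3a2, the shared heavy chain of amino acid exchangers, lay between 10.84 and 11.64, with log2 changes of 0.03 in MCU knockout and 0.15 in MCUb knockout, while its light chains Slc7a5 and Slc7a11 were below background. Vldlr, a lipoprotein receptor and target of ATF4, is described in full although chosen after its values were seen. It read 11.86, 12.79 and 13.52 in MCU knockout muscle, 13.40, 11.50 and 11.83 in MCUb knockout muscle, and 11.73, 11.98 and 12.27 in control muscle. Its 3 highest values were those of the 3 arrays with a high Y-linked level. The log2 changes against control, 0.73 in MCU knockout (SE 0.49, adjusted p = 0.635) and 0.25 in MCUb knockout, became -0.22 each with that level as a covariate. This level separated 4 of 38 members in all (10.5%, against 3.57% of probe sets): Vldlr and Mthfd2, the second of them below background, were higher, and Ddit3 and Hspd1 lower.

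Of the mitochondrial chaperones, Hspd1 and Hspe1 form the chaperonin that folds imported proteins and are the standard markers of the mitochondrial unfolded protein response. Hspd1 read 10.03, 9.49 and 9.37 in MCU knockout muscle, 9.41, 9.99 and 9.86 in MCUb knockout muscle, and 9.93, 9.51 and 10.79 in control muscle. Control replicate 3 was the highest. The log2 changes of -0.45 (adjusted p = 0.658) and -0.33 in MCU and MCUb knockout against control were -0.09 and 0.03 without it, and -0.16 and -0.18 after adjustment for the Y-linked level.

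Hspe1 read 15.16, 15.18 and 15.19 in MCU knockout muscle, 15.06, 15.59 and 15.17 in MCUb knockout muscle, and 15.40, 15.34 and 15.49 in control muscle. The MCU knockout arrays were close to each other and below all control arrays, by a log2 change of -0.23 (SE 0.18, adjusted p = 0.692). In MCUb knockout, 1 array lay above all controls and 2 below, with a log2 change of -0.14. The pair that shares the site printed above had no higher mean in either knockout over all 9 arrays.

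Hspa9, mortalin, pulls proteins through the import channel. Its level was 14.84, 14.42 and 14.72 in MCU knockout muscle, 14.35, 14.78 and 14.29 in MCUb knockout muscle, and 13.88, 14.61 and 13.74 in control muscle. Control replicates 1 and 3 were the lowest of the 9 arrays, and replicate 2 lay among the knockouts. The log2 change was 0.58 in MCU knockout (SE 0.25, adjusted p = 0.474), and 0.41 without control replicate 3.

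Dnaja3, the J-protein partner of mortalin, read 8.51, 8.61 and 8.56 in MCU knockout muscle, 8.99, 9.43 and 8.87 in MCUb knockout muscle, and 9.31, 8.49 and 9.01 in control muscle. The MCU knockout arrays lay below the MCUb knockout arrays (log2 change -0.54, SE 0.23, adjusted p = 0.849), and control spanned both. Trap1, the mitochondrial HSP90, had log2 changes of 0.21 and -0.02 against control. The 5 chaperones therefore held 2 with a higher and 3 with a lower mean in each knockout. At the shares of all probe sets with a lower mean, 2.62 and 2.70 of the 5 would be lower.

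Among the proteases, Lonp1 degrades damaged matrix proteins. Its level was 12.83, 12.20 and 12.87 in MCU knockout muscle, 12.21, 12.26 and 11.99 in MCUb knockout muscle, and 12.98, 12.24 and 12.81 in control muscle. The MCUb knockout arrays all lay at the low end reached by 1 array of each other genotype. Log2 changes were -0.52 in MCUb knockout (SE 0.25, adjusted p = 0.619) and -0.04 in MCU knockout against control.

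Spg7, paraplegin, is a subunit of the matrix-facing AAA protease of the inner membrane. It read 8.61, 7.68 and 7.94 in MCU knockout muscle, 7.54, 7.47 and 6.55 in MCUb knockout muscle, and 8.06, 7.62 and 8.92 in control muscle. The 3 MCUb knockout arrays were the lowest of the 9. Against control the mean was 2.02-fold lower (log2 change -1.01, SE 0.37, adjusted p = 0.562), which became a log2 change of -0.66 without control replicate 3, its highest array. Against MCUb knockout, MCU knockout was higher by a log2 change of 0.89 (adjusted p = 0.832), a comparison in which the controls enter only through the spread. Afg3l2, which pairs with paraplegin in that protease, had log2 changes of 0.21 and 0.12.

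Yme1l1, the inner membrane protease that faces the other side, read 10.47, 10.48 and 10.81 in MCU knockout muscle, 10.63, 10.88 and 10.65 in MCUb knockout muscle, and 9.80, 10.84 and 9.61 in control muscle. Control replicates 1 and 3 were below all knockout arrays and replicate 2 was not, as with Hspa9. The log2 change was 0.64 in MCUb knockout (SE 0.29, adjusted p = 0.613). It was 0.40 without control replicate 3 and 1.01 without control replicate 2, where its adjusted p of 0.0754 was the lowest of any member under any setting tried. Over these settings the adjusted p of Yme1l1 ran up to 0.890.

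Htra2, a serine protease of the intermembrane space, read 10.16, 9.96 and 10.36 in MCU knockout muscle, 9.76, 9.82 and 9.74 in MCUb knockout muscle, and 10.07, 9.39 and 9.28 in control muscle. MCU knockout exceeded MCUb knockout on every array (log2 change 0.39, adjusted p = 0.965) and overlapped control. Its log2 change against control was 0.58 (SE 0.22, adjusted p = 0.434), and 0.43 without control replicate 3. Oma1, the stress-activated protease upstream of the eIF2 kinase HRI, had log2 changes of 0.21 and -0.06.

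Clpx and Clpp together form the matrix protease of the unfolded protein response in worms. Clpx had log2 changes of -0.39 and -0.46 (adjusted p = 0.581 and 0.620), which were -0.19 and -0.26 without control replicate 3, its highest array. The MCU knockout arrays of Clpx lay below all its control arrays. Clpp had log2 changes of -0.17 and -0.23. The prohibitins, which form a ring scaffold in the inner membrane, had log2 changes between -0.02 and 0.27, and Lrpprc, which stabilises mitochondrial messenger RNAs, had -0.25 and -0.00. For the prohibitin gene Phb the MCU knockout arrays lay above all control arrays (log2 change 0.27, adjusted p = 0.674). The plot of named members shows these values by array.

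**Figure D4:**
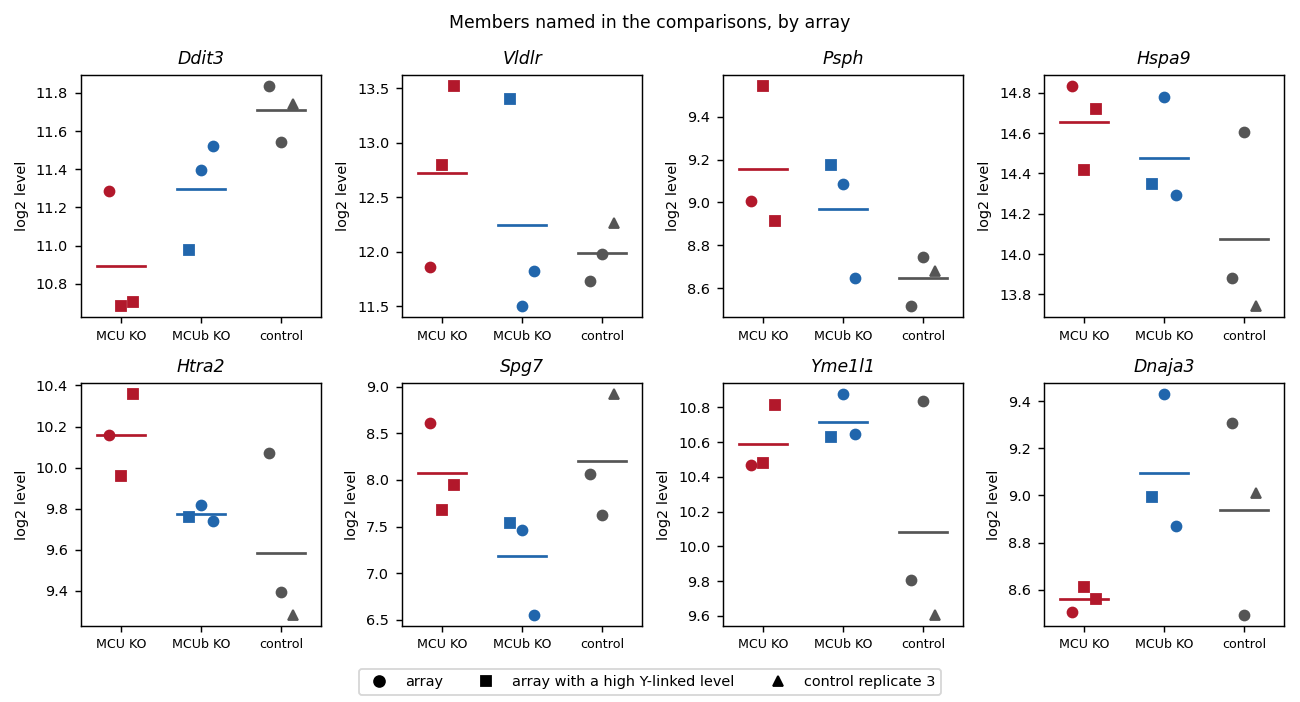
Log2 level of 8 members on each array (points), with the mean of each genotype (bar), MCU knockout, MCUb knockout and control from left to right. Squares are the arrays with a high Y-linked level and triangles are control replicate 3; each panel has its own axis. Ddit3 is lower in MCU knockout than in control on every array, Vldlr follows the squares, and in Hspa9 and Yme1l1 2 of the 3 control arrays lie below the knockouts.

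Control replicate 3 was the highest of the 9 arrays for 8 of 38 members (21.1%, against 22.7% of probe sets) and the lowest for 11 (28.9%, against 17.9%). For 15 of these members that were above background throughout, the values without this array are those above and the following. The log2 changes in MCU knockout and MCUb knockout without it were 0.09 and 0.21 for Atf4, 0.02 and -0.05 for Atf5, -0.05 and 0.21 for Aldh18a1, and -0.04 and -0.11 for Clpp. They were 0.0023 and -0.22 for Trap1, 0.06 and -0.03 for Afg3l2, and 0.02 and -0.25 for Oma1. Spg7 in MCU knockout, at -0.12 with all arrays, was 0.24 without it, Yme1l1 in MCU knockout was 0.27 against 0.51 with all arrays, and Hspa9 and Htra2 in MCUb knockout were 0.23 and 0.04. After adjustment for the Y-linked level, Atf5, Nupr1 and Oma1 in MCU knockout had log2 changes of 0.40, -0.72 and 0.48.

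Around the members, 6 further lists of the same pathways were read, and 0 of their measured genes passed the threshold in the comparisons of all 9 arrays. The eIF2 kinases and the eIF2 and eIF2B machinery (13 of 15 genes measured) had median log2 changes of -0.12 in MCU knockout and -0.09 in MCUb knockout, with 0 genes at an unadjusted p under 0.05 in either. Their smallest adjusted p was 0.556. Other targets of ATF4 (26 of 26) had medians of 0.02 and -0.01, with 1 and 2 genes lower and 0 higher at that p, where the background shares of 5.35% and 4.21% lower would amount to 1.39 and 1.09. The cytosolic tRNA synthetases (18 of 20), which ATF4 induces as a block, had medians of -0.03 and -0.01, with 3 and 1 lower and 0 higher, against 0.962 and 0.758 at the same shares.

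Slc1a5, the glutamine and neutral amino acid transporter and a target of ATF4, had the smallest p of these genes. It read 9.25, 9.97 and 9.57 in MCU knockout muscle, 10.63, 10.98 and 10.58 in MCUb knockout muscle, and 10.83, 10.40 and 11.06 in control muscle. The MCU knockout arrays lay below all others, at 2.25-fold below control (log2 change -1.17, SE 0.24, adjusted p = 0.148) and with a log2 change of -1.14 against MCUb knockout (adjusted p = 0.173). Ndrg1, a further gene of the list with a small p, had a log2 change of -0.79 in MCUb knockout against control. Pck2 and Bcat1 also had small p, but were above background on 0 of 3 MCUb knockout arrays, and no change is given for them. Pck2 reached 5.88 at most in MCUb knockout muscle and lay between 5.70 and 7.31 in control muscle, highest on control replicate 3. Of the synthetases, Tars had -0.77 in MCUb knockout (adjusted p = 0.469) and -0.52 in MCU knockout, and Sars had -0.49 in MCU knockout (adjusted p = 0.387).

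The unfolded protein response of the endoplasmic reticulum shares the eIF2 branch through the kinase PERK. Of its 18 measured genes of 20, 15 had a lower mean in MCU knockout and 14 in MCUb knockout than in control, with medians of -0.18 and -0.20. At the shares of all probe sets with a lower mean these counts would be 9.44 and 9.72. At an unadjusted p under 0.05, 1 and 3 were lower and 0 higher, against 0.962 and 0.758 lower at the background shares. Pdia6, a disulfide isomerase, read 6.42, 6.01 and 6.21 in MCU knockout muscle, 6.42, 6.68 and 6.38 in MCUb knockout muscle, and 7.36, 6.66 and 7.45 in control muscle. MCU knockout lay below control on every array (log2 change -0.94, adjusted p = 0.251), and without control replicate 2 the log2 change was -1.19 (adjusted p = 0.0454, with 0.0454 to 0.579 over all settings tried). Sdf2l1, of the same programme, was above background on 1 of 3 MCUb knockout arrays and 3 of 3 control arrays, with a log2 change of -0.87 (-0.46 without control replicate 2). Creld2 had -0.61 in MCUb knockout, and both genes overlapped between the groups.

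The cytosolic heat shock genes (14 of 18 measured) had medians of 0.05 and 0.03, with 2 lower and 0 higher in MCU knockout at that p, against 0.748 lower at the background share, and 0 of either in MCUb knockout. The 2 were Stip1, a cochaperone (log2 change -0.59, adjusted p = 0.366), and Hspb7, a small heat shock protein of muscle (log2 change -1.27, adjusted p = 0.413, and -0.52 after adjustment for the Y-linked level). Other genes of mitochondrial quality control (19 of 20) had medians of -0.09 and -0.05. The 1 gene at an unadjusted p under 0.05, against 0.904 higher at the background share, was Hscb, a cochaperone of iron-sulfur cluster assembly, with a log2 change of 1.25 in MCU knockout (SE 0.42, adjusted p = 0.381). Its groups overlapped, and without control replicate 2 the log2 change was 1.79 (adjusted p = 0.0478, with 0.0478 to 0.649 over all settings tried).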

How the data were processed

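The authors deposited 1 log2 value per probe set and array. The submitters' processing notes name Affymetrix Expression Console as the program. Its version, the summarisation, the normalization and the base of the logarithm are not given in the sources used here, so every fold rests on reading the values as log2. After 6640 control features were left out, 22206 probe sets remained, 19572 of them with 1 gene symbol. Members and the other gene lists were chosen by name with earlier results of these data known. Described on every array were 8 members named by rule (Gdf15 without a value), those at an unadjusted p under 0.05 in any comparison, and Vldlr. Of the other lists, the genes named were among the 4 with the smallest p of each list. Of these, only Slc1a5 and Pdia6 were described on every array.

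Two-sided tests came from limma 3.58.1 (R 4.3.3; lmFit, then eBayes), in 1 fit of 3 group means over 9 arrays (6 residual and 5.06 prior degrees of freedom), adjusted by Benjamini-Hochberg over 22206 probe sets. The number of arrays limits the precision. Alternatives were a filter on dim probe sets, other scaling, priors, weights and samples, a replicate block, the Y-linked level and leaving out each array. Promoter sequences are RefSeq's.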

Additional observations from a re-analysis of the deposited data

How the results depend on the processing

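Under 18 other settings, 9 of which left out an array, 0 of 38 members passed the adjusted threshold in any comparison. The counts of members at an unadjusted p under 0.05 were less steady. For MCU knockout against control (5) the count was 2 with a filter on dim probe sets, which left 27 members, 3 in a fit of the compared groups alone, and 2 to 6 when an array was left out (2 without control replicate 3). For MCUb knockout against control (4) it was 1 with the filter and 1 to 8 without an array (8 without control replicate 2, 1 without control replicate 3 or MCUb knockout replicate 3). Between the knockouts (2) it was 1 with the filter, with quantile normalization and with an intensity trend, 0 with the level of Uty and Kdm5d as a covariate, and 0 to 4 without an array (4 without MCU knockout replicate 1, 0 without MCU knockout replicate 3). Probe sets past the threshold in MCU knockout (31) numbered 16 with the Y-linked level and 20 to 98 without an array (98 without control replicate 2). In MCUb knockout (5) they numbered 1 in the fit of its groups and 0 to 20 without an array (20 without control replicate 2, 0 without control replicate 1 or MCUb knockout replicate 1 or 3). Between the knockouts (35) they numbered 61 with array weights and 13 to 43 without an array (13 without MCU knockout replicate 3). The median of the stress response members between the knockouts was -0.11 with the filter. The causes were not tested. Of 44 gene changes followed, 30 of them of members, 8 values reversed. Lonp1 in MCU knockout gave 0.014 with the Y-linked level and -0.25 to 0.18 without an array (above 0 without control replicate 1 or 3 or MCU knockout replicate 2). Vldlr gave -0.22 in both knockouts with the Y-linked level, and in MCUb knockout -0.32 to 0.62 without an array (-0.32 without MCUb knockout replicate 1). Hspd1 in MCUb knockout gave -0.61 to 0.031 without an array (0.031 without control replicate 3). Changes of members outside the 44 also changed sign without control replicate 3, as given above. Among them were Nupr1, Atf5 and Afg3l2 in MCUb knockout, and Aldh18a1 and Spg7 in MCU knockout, each against control. Of the other genes named, Pdia6 and Hscb in MCU knockout passed the threshold without control replicate 2 alone.

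The labels name no pairing by replicate number. Deviations from the group mean correlated between -0.12 and 0.09 for same-numbered arrays of different genotypes. For differently numbered arrays the range was also -0.12 to 0.09. Because the deviations were centred within groups of 3 arrays, these values cannot exclude a pairing. With the replicate number as a block, members at an unadjusted p under 0.05 numbered 6, 6 and 1 in the comparisons in that order and 0 passed the threshold, and 24, 5 and 28 probe sets passed.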
